A study of Mus musculus with 21 samples.

Results

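The Hox cluster genes are the transcription factor genes whose symbol is Hox followed by a, b, c or d and a number from 1 to 13. All genes listed in both deposited count tables that matched this pattern were taken, antisense transcripts left out, which gave 39 of the 24381 shared genes. HoxA holds 11 of them on the minus strand of chromosome 6, HoxB holds 10 on the plus strand of chromosome 11, HoxC holds 9 on the plus strand of chromosome 15 and HoxD holds 9 on the plus strand of chromosome 2. In mm10 with GENCODE vM21 gene models these stretches run from 52155590 to 52260880, from 96194316 to 96368256, from 102921103 to 103036852 and from 74668310 to 74765142, and all 39 members are protein coding. Paralogue groups 1 to 3, at the 3' end of each cluster, hold 8 members, groups 4 to 8 hold 15 and groups 9 to 13, at the 5' end, hold 16.

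Hox proteins bind DNA through a homeodomain and give cells of the embryo their place along the head-to-tail axis. The order of the genes on the chromosome follows the order of the body levels at which they act: low paralogue numbers are used from the hindbrain backwards, and high numbers only towards the tail. Neurons and glia of the dorsal root ganglia, which hold the cell bodies of sensory nerves next to the cord, come from neural crest of many levels and keep part of this pattern in the adult.

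The study sequenced poly-A RNA of dorsal root ganglia from 21 mouse samples. The mice carried a Tmem45b-flox allele without a recombinase (here flox) or with Mrgprd-cre (Tmem45b-flox::Mrgprd-cre, here cKO). Mrgprd-cre places the Cre recombinase under control of Mrgprd, a receptor gene of a class of skin-sensing neurons, so cells that never used Mrgprd keep the floxed allele intact. The CFA model, by common usage an inflammation induced with complete Freund's adjuvant, was applied to 4 flox and 4 cKO samples, and the other 6 flox and 7 cKO samples have no such entry in their titles. The genotype was taken from the titles, because the separate genotype field names the Cre line for every sample. Strain, sex, age, the number of animals per sample and the level of the ganglia are not given in the sources used here.

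The names of the libraries divide the samples without CFA further. Of these, 6 (3 flox and 3 cKO) carry LDRG in the name and were deposited in a table with the 8 CFA libraries. The other 7 stand in a second table with con or ko and a code of letters: 4 codes hold a C (1 flox and 3 cKO) and 3 hold an L (2 flox and 1 cKO). The labels do not say what C, L or LDRG stands for, and the names C-coded and L-coded are used here only for these letters. A library's own number follows its genotype, as in L-coded flox 6.

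Library totals over the shared genes, in units of 1000000 counts, were 53.3 to 65.6 in C-coded, 64.5 to 65.1 in L-coded, 62.0 to 72.4 in LDRG and 68.8 to 71.7 in CFA libraries. Tmem45b, the targeted gene, was at 124 to 179 counts per 1000000 (CPM) in flox and 59.9 to 89.1 CPM in cKO libraries without CFA, and at 65.9 to 136 CPM in flox and 61.8 to 108 CPM in cKO libraries with CFA, where the genotypes overlapped. Xist was at 283 to 459 CPM in the CFA libraries and at most 0.33 CPM in the LDRG libraries, so the sex of the animals and CFA cannot be told apart in that pair. Summed markers of sensory neurons were at 3471 to 4297 CPM in all 4 sets, and the defining sympathetic gene Hand2 was listed at 0 in every library. Red blood cell markers summed to 33.7 to 53.8 CPM in LDRG, 207 to 620 CPM in CFA, 1588 to 4317 CPM in L-coded and 1790 to 2876 CPM in C-coded libraries. In such whole-tissue samples, fewer cells of a type and less RNA per cell cannot be told apart.

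The sequences printed here lie on either side of the step in HoxA and HoxD of the pattern described below. At each step the C-coded libraries expressed the first gene of a pair and had little or none of its neighbour. The genes were chosen after the step was seen, and a link of sequence to expression was not tested. RefSeq start windows (build GRCm38.p6, 250 bases before to 50 after the start) were matched for 22 of the 39 members, in 24 windows. The 250 bases before the start are printed 5' to 3' on the strand of the gene, with each CpG pair in capitals, for Hoxa7 (chr6:52218574-52218823, minus strand), Hoxa9 (chr6:52227371-52227620, minus strand), Hoxd9 (chr2:74697513-74697762, plus strand) and Hoxd10 (chr2:74691641-74691890, plus strand).
Hoxa7: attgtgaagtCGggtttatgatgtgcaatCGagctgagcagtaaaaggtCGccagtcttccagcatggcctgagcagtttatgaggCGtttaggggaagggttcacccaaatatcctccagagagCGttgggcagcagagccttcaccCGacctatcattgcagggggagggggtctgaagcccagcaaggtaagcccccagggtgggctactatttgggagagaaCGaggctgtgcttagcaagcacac
Hoxa9: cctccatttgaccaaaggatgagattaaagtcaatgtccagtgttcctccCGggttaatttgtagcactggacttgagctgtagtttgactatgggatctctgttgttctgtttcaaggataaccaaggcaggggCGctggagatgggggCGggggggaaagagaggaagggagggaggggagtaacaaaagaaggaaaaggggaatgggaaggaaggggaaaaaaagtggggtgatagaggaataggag
Hoxd9: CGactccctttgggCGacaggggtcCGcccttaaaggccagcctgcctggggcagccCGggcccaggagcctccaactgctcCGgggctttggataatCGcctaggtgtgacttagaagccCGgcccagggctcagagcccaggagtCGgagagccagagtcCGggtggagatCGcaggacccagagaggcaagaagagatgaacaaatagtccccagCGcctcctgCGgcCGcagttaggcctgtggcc
Hoxd10: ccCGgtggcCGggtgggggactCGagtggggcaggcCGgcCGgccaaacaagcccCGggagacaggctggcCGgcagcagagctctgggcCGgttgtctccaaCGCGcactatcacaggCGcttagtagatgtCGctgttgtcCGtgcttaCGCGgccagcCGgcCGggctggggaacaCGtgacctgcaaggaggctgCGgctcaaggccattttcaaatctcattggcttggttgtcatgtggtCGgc
The stretch before Hoxa9 holds 3 CpG pairs and that before its neighbour Hoxa7 holds 7, while those before Hoxd9 and Hoxd10 hold 13 and 20. These starts are of unlike kinds. In the GENCODE models Hoxa7 and Hoxa9 begin further upstream, at 52221854 and 52231089, so their printed stretches lie inside the genes. Hoxd9 and Hoxd10 begin at 74697727 and 74691924, close to the RefSeq starts. The median was 12.5 over the 24 Hox windows and 6.0 over all 32851 windows used. The windows used leave out a chromosome that holds no Hox cluster. Of 3 motifs searched on both strands of the whole windows, TTTATGG was in the window of 1 Hox gene (Hoxd4) and in 2.75% of all windows, TGATTTAT in that of 0 Hox genes and in 0.977% of all windows, and TAATTA in those of 1 Hox gene (Hoxd11) and in 5.29% of all windows.

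The clusters also hold the microRNA families miR-196 and miR-10, which pair with target RNAs through the seed, bases 2 to 8. The mature forms from RefSeq are printed 5' to 3' with the seed in capitals, because counts at a locus of the family followed the same division of the libraries as the Hox genes around it.
mmu-miR-196a-5p: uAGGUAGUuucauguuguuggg
mmu-miR-196b-5p: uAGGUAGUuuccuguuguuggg
mmu-miR-10a-5p: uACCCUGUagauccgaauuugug
mmu-miR-10b-5p: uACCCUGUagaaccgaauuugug
Both miR-196 forms share the seed AGGUAGU and both miR-10 forms share ACCCUGU. The hairpin of Mir196a-1 lies in HoxB (chr11:96265164-96265265, plus strand), between Hoxb13 and Hoxb9, 6.19 kb from Hoxb9. Its locus was chosen for description after its values were seen. It had 0, 0, 0 and 1 counts in the C-coded libraries, 15, 32 and 28 in the L-coded, 19 to 43 in the LDRG and 12 to 35 in the CFA libraries. These are reads of longer poly-A RNA across the locus and not of the mature microRNA. The loci of Mir10a, Mir10b, Mir196b and Mir196a-2 had at most 5 counts in any library.

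Of the 39 members, 4 were at 0 in all 21 libraries: Hoxa13, Hoxc12, Hoxd12 and Hoxd13. Another 3 (Hoxb1, Hoxb13 and Hoxc13) had at most 5 counts in any library. Paralogue groups 12 and 13, known from the tail end of the trunk and the limb tips, therefore gave almost no reads in any set. In the C-coded libraries 11 members were at 0 in all 4, among them Hoxa11, Hoxc10, Hoxc11 and Hoxd11, which had reads in the other sets. A count of 0 over these 4 libraries allows up to 0.0116 CPM (3 counts summed over the 4, on the same TMM library sizes as all CPM here), which covers counting error only.

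**Figure D1:**
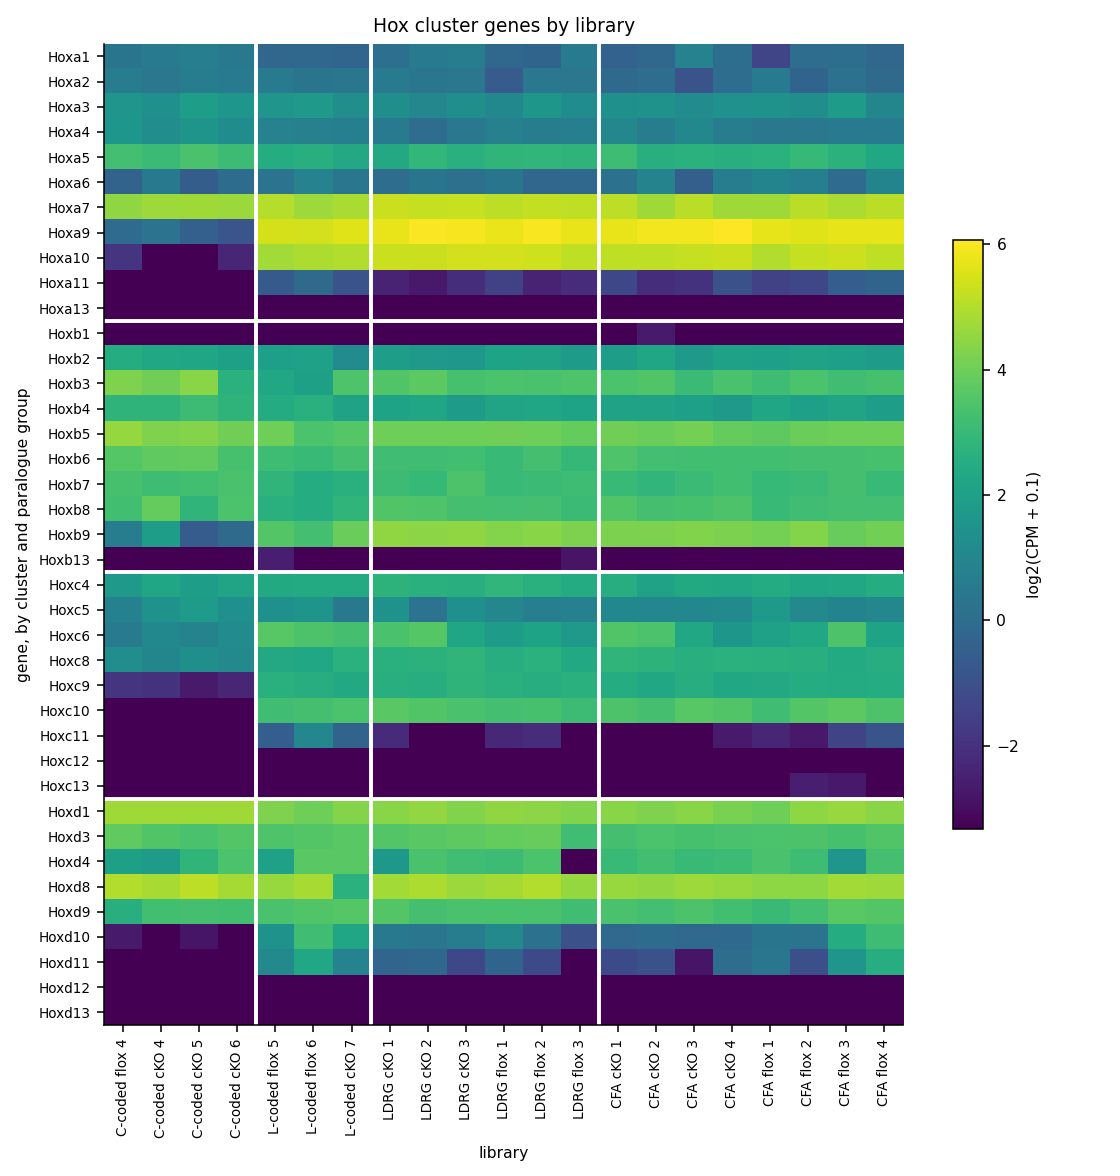
Level of each of the 39 Hox genes (lines, by cluster and paralogue group) in each of the 21 libraries (columns), as log2(CPM + 0.1) by colour, with white lines between the clusters and between the C-coded, L-coded, LDRG and CFA libraries. Hoxa9, Hoxa10, Hoxc9, Hoxc10 and Hoxd10 are dark in the 4 C-coded libraries and lighter in the other 17, where Hoxa9 was between 42.6 and 67.0 CPM.

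The comparison within a single table sets the 4 C-coded against the 3 L-coded libraries. Of 10 tested Hox genes of groups 9 to 11, 6 were lower in the C-coded libraries, among them Hoxa9 by 5.88, Hoxc9 by 5.38 and Hoxa10 by 8.60 on the log2 scale, with Hoxc10 at 0. The central genes Hoxc6 and Hoxc8 were lower too, and Hoxa5 was higher. Of 32 members with enough counts to test, 9 passed an adjusted p of 0.05 in edgeR's quasi-likelihood test with Benjamini-Hochberg adjustment over all genes, 1 higher and 8 lower. The background was 1.27% of 16740 tested genes called, 0.108% higher and 1.16% lower. The median log2 difference was -0.12 over the 32 members and 0.00 over all tested genes, since members above and below zero were 16 each.

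The direction followed the position in the cluster. All 10 tested members of groups 9 to 11 had a negative difference, and 6 of them were called. All 7 tested members of groups 1 to 3 had a positive difference, from 0.037 to 1.19, and 0 of them were called, with 4 at an unadjusted p under 0.05 and Hoxb2 and Hoxd1 called by DESeq2. Of the 15 members of groups 4 to 8, 9 were positive and 6 negative, with 1 called higher and 2 lower. By cluster, 1 higher and 2 lower were called in HoxA, 0 in HoxB, 4 lower in HoxC and 2 lower in HoxD. In HoxB 8 of 8 tested members were at an unadjusted p under 0.05 and DESeq2 called Hoxb2, Hoxb5, Hoxb7 and Hoxb9. Over all genes 19.3% were at an unadjusted p under 0.05, and DESeq2 called 1470 genes, or 8.78%.

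**Figure D2:**
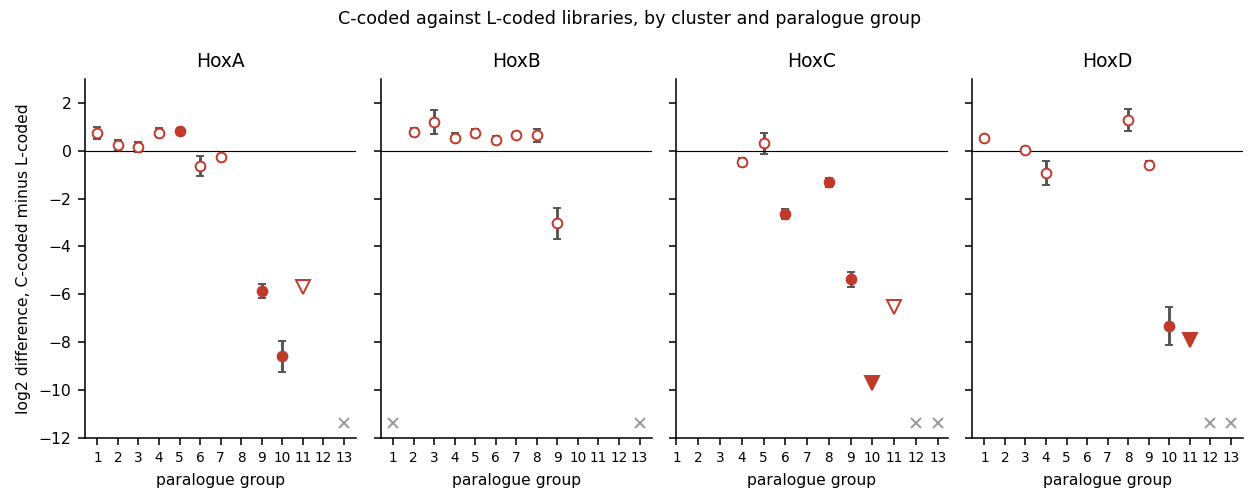
Log2 difference of C-coded minus L-coded libraries (4 against 3) for each Hox gene by paralogue group, a panel per cluster, where circles are edgeR estimates with the standard error, triangles are the smallest difference that 0 counts in all 4 C-coded libraries allow, filled symbols passed an adjusted p of 0.05, and crosses at the foot are genes with too few counts to test. All 7 tested genes of groups 1 to 3 lie above zero and all 10 of groups 9 to 11 below it, with Hoxa10 at -8.60.

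Hoxa9, a group 9 gene of the trunk and also of blood stem cells, was at 0.88, 1.09, 0.63 and 0.46 CPM in the C-coded libraries and at 43.9, 42.6 and 48.8 CPM in the L-coded. No C-coded library came near an L-coded one. The difference was -5.88 (SE 0.29) with an edgeR adjusted p of 0.0014, the second smallest p of all 16740 genes. The LDRG libraries had 53.6, 58.3 and 64.2 CPM as the lowest, median and highest, and the CFA libraries 49.1, 53.4 and 67.0 CPM. These lay above every L-coded library.

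Hoxa10, the next gene of the cluster, was at 0.16, 0, 0 and 0.10 CPM in the C-coded libraries and at 26.9, 29.9 and 31.6 CPM in the L-coded. The difference was -8.60 (SE 0.65) with an edgeR adjusted p of 0.0058. Hoxa11, which acts in the limb and the reproductive tract, was at 0 in all 4 C-coded libraries and at 0.53, 0.85 and 0.43 CPM in the L-coded. That is at least 52.3-fold higher in the L-coded libraries, with counts summed over their 3 libraries and set against 3 counts over the C-coded ones, and its edgeR adjusted p of 0.064 missed the threshold.

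The step in HoxA stood between Hoxa7 and Hoxa9. Hoxa7, a gene of the trunk, was at 22.5, 25.6, 26.4 and 24.9 CPM in the C-coded libraries and at 32.7, 25.8 and 29.2 CPM in the L-coded, so that the sets overlapped. Its difference was -0.27 (SE 0.11) with an edgeR adjusted p of 0.24. Hoxa5, which patterns the neck and upper trunk, was at 9.52, 8.36, 10.3 and 8.66 CPM in the C-coded and at 5.54, 5.84 and 4.93 CPM in the L-coded libraries. The sets did not overlap, and the difference was 0.83 (SE 0.13) with an edgeR adjusted p of 0.047. This call was kept in 3 of 8 alternative analyses and in 1 of 7 that each left out a library.

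In HoxB the step stood between Hoxb8 and Hoxb9. Hoxb9 was at 1.43, 3.64, 0.57 and 0.84 CPM in the C-coded libraries and at 11.7, 9.52 and 15.2 CPM in the L-coded. Every C-coded library was below every L-coded one, C-coded cKO 4 being the highest of them. The difference was -3.04 (SE 0.64), and the edgeR adjusted p of 0.069 missed the threshold while DESeq2 gave an adjusted p of 0.0051. Hoxb2 to Hoxb8 had positive differences from 0.44 to 1.19, the smallest adjusted p among them being 0.074 for Hoxb7 (0.65, SE 0.14, edgeR).

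HoxC showed differences over the longest run of genes. Hoxc6, a gene of the upper trunk, was at 1.38, 1.98, 1.74 and 2.19 CPM in the C-coded and at 12.4, 10.7 and 9.69 CPM in the L-coded libraries (difference -2.64, SE 0.22, edgeR adjusted p 0.0083). Hoxc8 was at 2.33, 1.91, 2.44 and 2.01 CPM against 4.92, 4.80 and 6.28 CPM (difference -1.32, SE 0.18, edgeR adjusted p 0.040). Neither gene's sets overlapped, and both kept part of their level in the C-coded libraries. Hoxc6 also took separate levels within the LDRG and within the CFA libraries, described further on.

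Hoxc9, which sets the thoracic motor neuron type in the embryo, was at 0.16, 0.16, 0.060 and 0.10 CPM in the C-coded and at 6.18, 5.74 and 5.08 CPM in the L-coded libraries. The difference was -5.38 (SE 0.31) with an edgeR adjusted p of 0.0022. Hoxc10, a gene of the lumbar level, had 0 counts in all 4 C-coded libraries and stood at 9.04, 9.63 and 10.4 CPM in the L-coded. That is at least 833-fold higher (3 counts summed over the C-coded libraries), with an edgeR adjusted p of 0.0058. Hoxc11 was at 0 against 0.61, 1.92 and 0.70 CPM, at least 93.2-fold higher, with an edgeR adjusted p of 0.063. Hoxc4 and Hoxc5, at the other end of the cluster, had differences of -0.49 (SE 0.17) and 0.31 (SE 0.45), neither of them called.

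In HoxD the step came later, between Hoxd9 and Hoxd10. Hoxd9 was at 5.84, 9.33, 9.72 and 9.36 CPM in the C-coded and at 10.3, 11.5 and 11.9 CPM in the L-coded libraries, a difference of -0.59 (SE 0.15) with an edgeR adjusted p of 0.11. It was therefore the only group 9 gene of the 4 whose mean in the C-coded libraries, 8.56 CPM, exceeded 2 CPM. Hoxd10, a gene of lumbar motor neurons and limbs, was at 0.059, 0, 0.045 and 0 CPM in the C-coded and at 2.70, 8.91 and 4.57 CPM in the L-coded libraries. The difference was -7.33 (SE 0.78) with an edgeR adjusted p of 0.029. Hoxd11 was at 0 against 2.06, 4.69 and 1.70 CPM, at least 244-fold higher in the L-coded libraries, with an edgeR adjusted p of 0.047. Hoxd1, used by the neurons of some sensory classes, was at 26.5, 26.1, 26.7 and 26.3 CPM in the C-coded and at 19.1, 15.9 and 19.8 CPM in the L-coded libraries. These sets did not overlap, and the difference of 0.51 (SE 0.10) had an edgeR adjusted p of 0.059.

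The count of 9 called members depended on single libraries and on the terms of the fit. The codes also hold an F or an M, which the labels do not explain, with 3 F and 1 M among the C-coded and 1 F and 2 M among the L-coded libraries. Xist ran from 0.21 to 320 CPM in the C-coded and from 0 to 316 CPM in the L-coded libraries, so each set held low and high values. With the F or M letter as a further term 3 Hox genes and 14 of all genes were called. Without L-coded cKO 7, the only cKO library among the L-coded, it was 0, with 19 members at an unadjusted p under 0.05, and it was 4 without L-coded flox 6, 5 without C-coded cKO 4 and 5 without C-coded cKO 6. Hoxa9 was called in all 8 alternative analyses and in 6 of the 7 that left out a library, Hoxa10, Hoxc9 and Hoxc6 in 6 of those 7, and Hoxc10 in 5. Hoxd10 was called in 2 of them, and Hoxc8 and Hoxd11 in 1.

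The C-coded libraries also stood apart from the 14 libraries of the other table, with LDRG and CFA differing from them in table as well as in code, which cannot be told apart. Xist was low in every LDRG and high in every CFA library but took both levels in the C-coded set, and the part of sex was not tested. Between LDRG and C-coded libraries 20 of 32 tested Hox genes were called by edgeR, 13 higher and 7 lower in LDRG, against a background of 45.3% of 16706 genes (20.7% higher and 24.6% lower). All 10 tested members of groups 9 to 11 were positive and 9 were called, the exception being Hoxc11. Between CFA and C-coded libraries 22 of 32 were called, 13 higher and 9 lower in CFA, against 48.7% of 16928 genes (23.5% higher and 25.2% lower). Hoxa9 was higher by 6.26 (SE 0.21) in LDRG and by 6.23 (SE 0.17) in CFA libraries, and Hoxc8 by 1.5 (SE 0.12) and 1.53 (SE 0.10), with edgeR adjusted p-values of 4.9e-09, 2.6e-15, 3.5e-06 and 1.6e-09.

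Hoxa10 was at 35.5, 40.8 and 42.8 CPM (lowest, median and highest) in LDRG and 31.9, 36.9 and 40.4 CPM in CFA libraries. Hoxc9 was at 5.69, 5.98 and 6.82 CPM and 4.76, 5.43 and 5.61 CPM, and Hoxc10 at 8.50, 10.2 and 12.5 CPM and 9.06, 11.1 and 12.8 CPM. Hoxc8 was at 5.11, 6.22 and 7.0 CPM and 5.23, 6.08 and 6.98 CPM. No C-coded library reached these ranges for any of the 4 genes. Of the markers, 5 of 5 red blood cell genes were lower in LDRG and in CFA than in C-coded libraries, as were 4 and 3 of 4 fibroblast and 3 and 4 of 5 central glia genes. Also lower were 3 and 4 of 4 Schwann cell and 2 and 2 of 3 satellite glia genes, and 1 satellite glia gene was higher in LDRG. Higher were 4 and 3 of 7 sensory neuron genes, and the part of all these in the Hox differences was not tested.

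The C-coded libraries serve as the reference of both comparisons, so these values are not independent. Lower in LDRG than in C-coded libraries were Hoxa4, Hoxa5, Hoxb2, Hoxb4, Hoxb5, Hoxb6 and Hoxd1, by 0.33 to 1.0 on the log2 scale. The same 7 genes were lower in CFA than in C-coded libraries, with Hoxa2 and Hoxb3 besides. Hoxb4 was at 6.72 to 8.46 CPM in the C-coded libraries, 3.55 to 4.53 CPM in LDRG and 3.29 to 4.56 CPM in CFA libraries.

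Setting the 4 C-coded against all other 17 libraries, 9 members lay below every other library: Hoxa9, Hoxa10, Hoxa11, Hoxb9, Hoxc6, Hoxc8, Hoxc9, Hoxc10 and Hoxd10. Another 3 lay above: Hoxa4, Hoxb4 and Hoxd1. Among genes with a mean of at least 1 CPM, 8 of 30 Hox genes lay below and 3 of 30 above, against 4.35% and 3.99% of 14234 genes.

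Groups 9 to 13 gave 3.89 to 6.42% of all Hox CPM in the C-coded libraries, 38.6 to 43.8% in the L-coded, 41.3 to 43.8% in LDRG and 40.01 to 46.05% in CFA libraries. Their sum was 11.2 ± 2.33 CPM (SD, n = 4) in C-coded, 123 ± 8.37 CPM (SD, n = 3) in L-coded, 148 ± 8.82 CPM (SD, n = 6) in LDRG and 142 ± 8.72 CPM (SD, n = 8) in CFA libraries. Groups 1 to 3 summed to 64.2 ± 7.58, 44.7 ± 4.83, 53.2 ± 3.32 and 48.7 ± 2.97 CPM in the same order. Groups 4 to 8 differed least, at 144 ± 5.81, 130 ± 11.3, 148 ± 11.7 and 140 ± 8.23 CPM.

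By cluster, HoxA and HoxC carried the difference in sums. HoxA summed to 44.1 ± 2.36 CPM in the C-coded and 118 ± 4.34 CPM in the L-coded libraries, and HoxC to 10.7 ± 1.34 and 40.1 ± 1.22 CPM. HoxD summed to 83.8 ± 4.58 and 79.1 ± 12.9 CPM, and HoxB to 80.9 ± 11 and 61.3 ± 7.31 CPM, each with n = 4 and n = 3. Group 9 summed to 11.1 CPM in C-coded libraries, where Hoxd9 held most of it, and to 74.2 CPM in the L-coded. Group 10 summed to 0.093 and 44.5 CPM, and group 11 to 0 and 4.49 CPM.

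**Figure D3:**
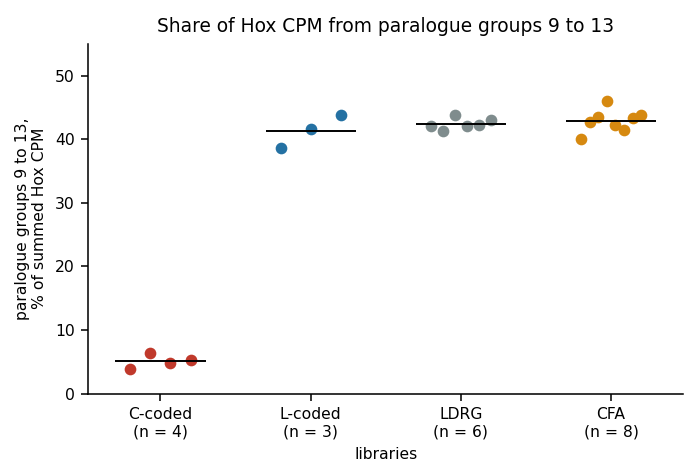
Share of the summed Hox CPM that came from paralogue groups 9 to 13, a point per library and a line at the mean of each set. The 4 C-coded libraries lie at 3.89 to 6.42% and the other 17 at 38.6 to 46.05%.

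Per kilobase of exon, the scale on which genes can be set against each other, Hoxd1 led in the C-coded libraries at 14.2 ± 0.13 CPM per kb (SD, n = 4), followed by Hoxd8 at 11.2 ± 1.23 and Hoxa7 at 8.63 ± 0.58. The ranges of these 3 did not overlap. In the L-coded libraries Hoxa7 at 10.2 ± 1.20, Hoxd1 at 9.79 ± 1.12 and Hoxa10 at 9.01 ± 0.73 CPM per kb (n = 3) led, with overlapping ranges, and Hoxa9 came next at 8.09 ± 0.59. Hoxd8 was at 8.96 and 10.5 CPM per kb in L-coded flox 5 and flox 6 but at 2.29 in L-coded cKO 7, so its place after these genes rested on that library. In the LDRG libraries the order was Hoxa7 at 12.9 ± 0.57, Hoxa10 at 12.3 ± 0.85 and Hoxd1 at 11.4 ± 0.83 (n = 6), and in the CFA libraries Hoxa10 at 11.3 ± 0.79, Hoxd1 at 10.9 ± 1.41 and Hoxa7 at 10.7 ± 1.36 (n = 8). Neighbours in these last orders overlapped.

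Other genes moved with the code letters. The summed markers of central glia and spinal cord (Mog, Mobp, Opalin, Aqp4 and Slc1a2) were at 44.5 to 99.1 CPM in the C-coded and 16.3 to 20.3 CPM in the L-coded libraries, at 20.5 to 31.3 CPM in LDRG and 19.3 to 29.0 CPM in CFA libraries. Of its 5 members, only Mobp was called by edgeR (difference 4.84, adjusted p 0.013), and Opalin was at 0 outside the C-coded libraries. Of 4 spinal motor neuron markers 2 could be tested and 0 were called between the code letters, their sums being 136 to 152 and 141 to 154 CPM. Of 6 skeletal muscle markers 1, Myh4, was lower in the C-coded libraries (difference -3.30, edgeR adjusted p 0.0037), with sums of 2.57 to 372 CPM in the C-coded and 11.1 to 773 CPM in the L-coded libraries. Of 7 sensory neuron, 4 Schwann cell, 3 satellite glia, 4 fibroblast and 5 red blood cell markers 0 were called. The part of these in the Hox differences was not tested.

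The partners and regulators of Hox genes showed less. Of 9 TALE cofactors, the Pbx, Meis and Pknox homeodomain proteins that bind DNA together with Hox proteins, 0 were called between C-coded and L-coded libraries, their median difference being 0.20. Meis2 was at 28.0 ± 3.27 CPM in the C-coded (n = 4) and 23.2 ± 2.93 CPM in the L-coded libraries (n = 3). Of 15 genes of retinoic acid, Cdx and related signals that set Hox expression in the embryo, 11 could be tested and 0 were called. Cdx2, Cdx4 and Fgf8 were listed at 0 in every library. Cyp26b1, which breaks down retinoic acid, was at 15.8 ± 2.14 CPM in the C-coded and 9.59 ± 2.12 CPM in the L-coded libraries (difference 0.79, SE 0.21, edgeR adjusted p 0.11).

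Of 16 chromatin regulators, the Polycomb and Trithorax proteins and demethylases that keep Hox genes off or on, 1 was called, Cbx2. It was at 10.3, 8.76, 9.82 and 9.36 CPM in the C-coded and 0.71, 0.49 and 0.76 CPM in the L-coded libraries (difference 3.85, SE 0.21, edgeR adjusted p 0.0018). Within the LDRG and CFA libraries the same gene fell into separate levels, with 0.46 to 0.79 CPM in 6 libraries and 6.45 to 9.03 CPM in the other 8. Of 12 measured genes at the ends of the clusters, 10 were tested and 0 called, and Evx1 and Evx2, next to Hoxa13 and Hoxd13, were listed at 0 in every library. Of 9 tested noncoding and antisense transcripts of the clusters 0 were called. Hotair, which lies in HoxC between Hoxc11 and Hoxc12, was at 0 in the C-coded and at 0.18, 0.63 and 0.21 CPM in the L-coded libraries, and Hoxa11os had 0 counts in the C-coded and 13, 17 and 25 in the L-coded libraries. Of the limb-level genes Tbx4, Tbx5 and Pitx1, 1 could be tested and was not called.

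Hoxd10 and the group 11 genes also varied among the 17 libraries outside the C-coded set. Hoxd10 was at 5.49 and 8.68 CPM in CFA flox 3 and CFA flox 4 and at 0.82 to 1.17 CPM in the other 6 CFA libraries. Hoxd11 was at 2.89 and 5.74 CPM in the same 2 and at 0.043 to 1.18 CPM in the others. The highest values of Hoxa11 in that set, 0.60 and 0.71 CPM, and of Hoxc11, 0.28 and 0.44 CPM, were in these libraries too. L-coded flox 6 had the highest value of all 21 libraries for Hoxd10 (8.91 CPM), Hoxa11 (0.85 CPM) and Hoxc11 (1.92 CPM). Hoxa11 shares 800 exon bases with Hoxa11os on the opposite strand, so reads can be assigned to either. Summed with Hoxa11os, CFA flox 3 was at 1.16 CPM, above every other library including L-coded flox 6. CFA flox 4, at 0.71 CPM, was then below CFA cKO 4 (0.85 CPM) and CFA flox 1 (0.77 CPM). The order of the libraries for Hoxa11 therefore depends on this assignment.

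**Figure D4:**
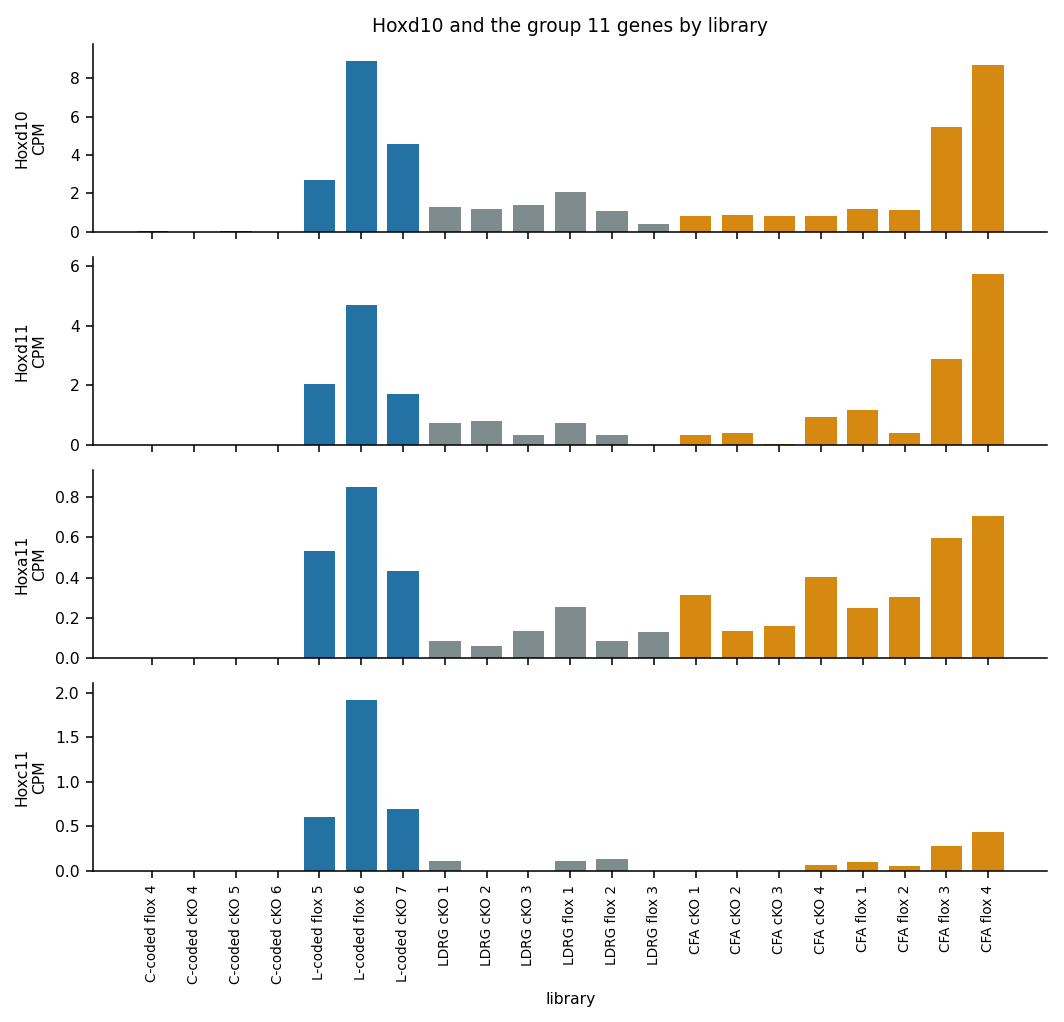
CPM of Hoxd10, Hoxd11, Hoxa11 and Hoxc11 in each library, each panel with its own axis from 0, with bars red for C-coded, blue for L-coded, grey for LDRG and orange for CFA libraries. CFA flox 3 and CFA flox 4 hold the 2 highest bars of the CFA set for all 4 genes, L-coded flox 6 holds the highest of the L-coded set, and the C-coded libraries are at or near 0. The Hoxa11 bars leave out reads assigned to the overlapping Hoxa11os.

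Between LDRG and L-coded libraries 8 of 32 tested Hox genes were called by edgeR, 3 higher and 5 lower in LDRG, against a background of 40.3% of 16706 genes (18.1% higher and 22.2% lower), a share above that of the Hox genes. Hoxd10 was at 0.40, 1.23 and 2.06 CPM (lowest, median and highest) in LDRG libraries, all below the L-coded ones, a difference of -2.11 (SE 0.51, edgeR adjusted p 0.0061). Hoxa11 was at 0.057, 0.11 and 0.26 CPM (difference -2.18, SE 0.48, edgeR adjusted p 0.0060). Hoxc11 was at 0, 0.057 and 0.13 CPM (difference -4.01, SE 0.98, edgeR adjusted p 0.010), and Hoxd11 and Hoxc6 were the other 2 that were lower. For Hoxc6 the sets overlapped. LDRG cKO 1 and cKO 2 were at 10.2 and 11.8 CPM, within the L-coded range of 9.69 to 12.4 CPM. The remaining LDRG libraries were at 3.28 to 4.51 CPM of Hoxc6, separate levels described further on. In the same comparison 5 of 5 red blood cell and 3 of 4 fibroblast markers were lower and 3 of 7 sensory neuron markers higher in LDRG libraries. Of 4 Schwann cell markers 1 was lower, and of 3 satellite glia markers 1 was lower and 1 higher. Their part in the Hox differences was not tested.

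Higher in LDRG than in L-coded libraries were Hoxa7, Hoxb7 and Hoxb8. Hoxa7 was at 35.1, 37.4 and 39.2 CPM, above all L-coded libraries (difference 0.31, SE 0.07, edgeR adjusted p 0.0035). Hoxb7 was at 7.65, 8.44 and 10.7 CPM against 7.01, 5.54 and 6.12 CPM (difference 0.46, SE 0.12, edgeR adjusted p 0.0076), and Hoxb8 was higher by 0.63 (SE 0.18, edgeR adjusted p 0.013). Between CFA and L-coded libraries 5 of 32 were called, against 42.9% of 16928 genes (19.7% higher and 23.2% lower). Hoxb8 (0.62, SE 0.14), Hoxb7 (0.41, SE 0.11) and Hoxb5 (0.29, SE 0.12) were higher in CFA, and Hoxc11 (-3.42, SE 0.94) and Hoxb4 (-0.36, SE 0.11) lower, with edgeR adjusted p-values of 0.0014, 0.0046, 0.049, 0.0077 and 0.014. Hoxb8 was at 8.11, 9.67 and 11.4 CPM in CFA (lowest, median and highest) and at 6.18, 5.57 and 6.92 CPM in L-coded libraries, without overlap. Hoxb7 was at 7.21, 8.11 and 9.72 CPM in CFA libraries, and Hoxb5 at 13.4, 15.7 and 17.1 CPM against 16.0, 10.4 and 11.9 CPM, where the sets overlapped. LDRG and CFA libraries differ from the L-coded in table as well as in code, and CFA libraries also in treatment, which cannot be told apart. Xist was low in every LDRG and high in every CFA library but took both levels in the L-coded set. The part of sex in the Hox differences was not tested. Both comparisons use the same 3 L-coded libraries. Without L-coded flox 6 the counts were 3 and 3.

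CFA libraries were set against the 6 LDRG libraries of the same table. Xist was at 283 to 459 CPM in CFA and at most 0.33 CPM in LDRG libraries. The inflammation model and the sex of the animals therefore cannot be told apart in these differences. Of 31 tested Hox genes 6 were called by edgeR, 1 higher and 5 lower in CFA, against a background of 17.8% of 16237 genes (9.95% higher and 7.9% lower), a share close to that of the Hox genes. Hoxb9 was at 14.6, 18.3 and 19.9 CPM in CFA and 18.5, 21.2 and 22.9 CPM in LDRG libraries (lowest, median and highest). The ranges overlapped, and the difference was -0.23 (SE 0.06, edgeR adjusted p 0.017). Hoxa7 was at 26.3, 31.7 and 34.8 CPM in CFA, below every LDRG library (difference -0.27, SE 0.08, edgeR adjusted p 0.023).

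Hoxa11 was at 0.13, 0.31 and 0.71 CPM in CFA and 0.057, 0.11 and 0.26 CPM in LDRG libraries, on at most 48 counts in a library. The difference was 1.51 (SE 0.40, edgeR adjusted p 0.018). Summed with the overlapping Hoxa11os, it was at 0.16 to 1.16 CPM in CFA and 0.13 to 0.28 CPM in LDRG libraries, and the sum was not tested. Hoxc4 (-0.31, SE 0.09), Hoxd3 (-0.29, SE 0.09) and Hoxc9 (-0.21, SE 0.07) were the other 3 that were lower, with edgeR adjusted p-values of 0.025, 0.044 and 0.044. Hoxc4 was at 4.15, 4.98 and 5.72 CPM in CFA and 5.35, 6.16 and 7.19 CPM in LDRG libraries, and Hoxd3 at 9.63, 10.3 and 11.3 CPM and 9.0, 13 and 14.7 CPM, each with overlap. Within flox libraries alone edgeR called 0 Hox genes, with 3 at an unadjusted p under 0.05, and within cKO libraries alone 0, with 8. The count was 2 without LDRG cKO 1 and 3 without LDRG flox 1. All 5 red blood cell and all 4 fibroblast markers were higher in CFA than in LDRG libraries by the same test, while 2 of 7 sensory neuron and 2 of 4 Schwann cell markers were lower, and of 3 satellite glia markers 2 were lower and 1 higher. Their part in the Hox differences was not tested. Of 9 TALE cofactors 3 were lower, of 16 chromatin regulators 4 were higher, and of 9 tested upstream signal genes 3 were higher and 1 lower in CFA. Over these 14 libraries the share of groups 9 to 13 overlapped, at 41.3 to 43.8% in LDRG and 40.01 to 46.05% in CFA.

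The genotype comparison asks what recombination of Tmem45b by Mrgprd-cre changed. Among libraries without CFA 0 of 32 Hox genes were called by edgeR between cKO and flox, against 0.00599% of 16706 genes (1 gene). There were 4 Hox genes at an unadjusted p under 0.05 (Hoxb2, Hoxc6, Hoxc10 and Hoxd9), beside 5.88% of all genes, and DESeq2 called 0. Differences ran from -0.93 to 0.75, the smallest edgeR adjusted p being 0.78. Among CFA libraries 0 of 31 were called, against 0.0% of 16063 genes, with 5 at an unadjusted p under 0.05, beside 4.95% of all genes, and 0 by DESeq2.

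Of these 5, Hoxd10 (-2.28, SE 0.63) and Hoxd11 (-2.57, SE 0.89) had the largest differences, with edgeR adjusted p-values of 0.94, and CFA flox 3 and 4 held their high values. Hoxa9 was at 54.2, 60.2, 59.7 and 67.0 CPM in the CFA cKO and at 51.9, 49.1, 52.5 and 52.7 CPM in the CFA flox libraries, without overlap, a difference of 0.23 (SE 0.07, edgeR adjusted p 0.94). A further test asked whether the genotype difference itself differed between CFA and LDRG libraries, where CFA and sex cannot be told apart. In it 0 of 31 Hox genes were called by edgeR, against 0.0% of 16547 genes, and 0 by DESeq2. There were 3 Hox genes at an unadjusted p under 0.05, beside 5.11% of all genes. The code letters were not spread evenly over the genotypes, with 1 flox and 3 cKO among the C-coded and 2 flox and 1 cKO among the L-coded libraries. The comparison without CFA therefore held the set of libraries as a term. For Hoxc10 the plain means were 7.76 CPM in flox and 6.38 CPM in cKO libraries, while the fitted difference, cKO minus flox, was 0.25 (SE 0.10).

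A last pattern concerned genes that took separate levels within sets. Hoxc6 was at 10.2 and 11.8 CPM in LDRG cKO 1 and cKO 2 and at 3.28 to 4.51 CPM in the other 4 LDRG libraries. Among the CFA libraries it was at 10.5 to 11.3 CPM in cKO 1, cKO 2 and flox 3 and at 3.04 to 4.90 CPM in the other 5. No library of these sets lay between 4.90 and 10.2 CPM, and the L-coded libraries all stood near the upper level. Its neighbour Hoxc8 stayed between 5.11 and 7.0 CPM in the same 14 libraries.

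Hoxd4 was at 0 in LDRG flox 3 and at 3.09 CPM in LDRG cKO 1, while the other 4 LDRG libraries were at 8.57 to 10.7 CPM. It was at 2.91 CPM in CFA flox 3 against 7.92 to 10.2 CPM in the other 7 CFA libraries. L-coded flox 5 had 4.02 CPM beside 12.5 and 12.7 CPM in the other 2, and the C-coded libraries had 3.94, 3.58, 7.05 and 10.5 CPM. Hoxd3, whose gene model shares 388 exon bases with Hoxd4 on the same strand, was at 9.0 CPM in LDRG flox 3, its lowest LDRG value. Hoxd8 was at 6.28 CPM in L-coded cKO 7 and between 21.9 and 35.4 CPM in the other 20 libraries.

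Hoxb3 and its antisense transcript Hoxb3os took opposite levels within the L-coded and C-coded sets. The gene models share 2250 exon bases on opposite strands, and the sources used here do not say whether counting used the strand. In the L-coded libraries Hoxb3 was at 4.74, 3.94 and 11 CPM and Hoxb3os at 9.56, 12.7 and 4.06 CPM, while their sum stayed at 14.3 to 16.6 CPM. In C-coded cKO 6 Hoxb3 was at 6.23 and Hoxb3os at 10.6 CPM, against 16.1 to 20.9 CPM and 3.08 to 6.26 CPM in the other 3 C-coded libraries. Reads of overlapping genes can be assigned to either, so the levels of Hoxb3, Hoxd3 and Hoxd4 are uncertain in single libraries. The same limit holds for other members that share exon bases with a listed gene. Among them are Hoxb2 with Hoxb3os (953 bases), Hoxa11 with Hoxa11os (800), Hoxa7 with Hoxaas3 (586) and Hoxc10 with Hoxc5 (166, same strand). Hoxc6 and Hoxd8 share 0 exon bases with another gene of the tables in these models, and how their reads were assigned was not tested.

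**Figure D5:**
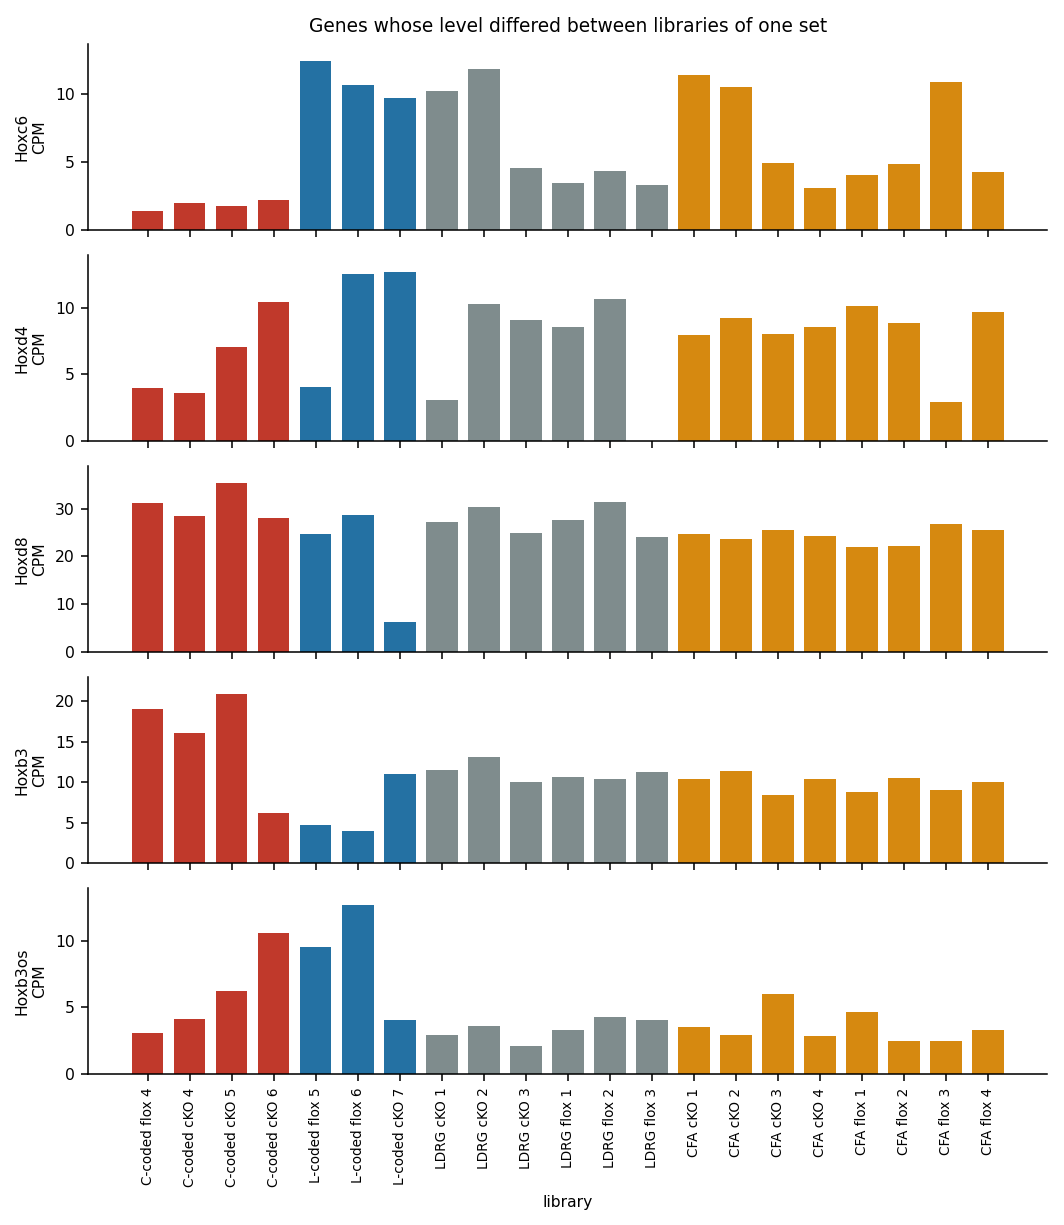
CPM of Hoxc6, Hoxd4, Hoxd8, Hoxb3 and the antisense transcript Hoxb3os in each library, each panel with its own axis from 0, with bars red for C-coded, blue for L-coded, grey for LDRG and orange for CFA libraries. Hoxc6 takes a level of 3.04 to 4.90 CPM or of 10.2 to 11.8 CPM in the LDRG and CFA libraries, Hoxd4 is at 0 in LDRG flox 3, and Hoxd8 is low in L-coded cKO 7.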

How the data were processed

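Poly-A RNA of mouse dorsal root ganglia was sequenced as paired reads of 150 bases. Per the submitters' processing notes the authors used fastp 0.23.2, BWA 2.2.1, SAMtools 1.14, DESeq2 1.40.2 and mm10; the roles of these tools, the annotation and the strand setting are not given in the sources used here. The deposited values are raw counts per gene in tables of 14 and 7 libraries with 24524 and 24512 genes, joined on the 24381 shared symbols.

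From these counts, edgeR 4.0.16 (R 4.3.3) gave CPM with TMM library sizes and quasi-likelihood F tests on genes passing filterByExpr (minimum count 10), with Benjamini-Hochberg adjustment over all tested genes and a threshold of 0.05. C-coded, L-coded and LDRG libraries were compared with genotype as a term, and CFA with genotype likewise. The alternatives were DESeq2 1.42.0, other filters, scaling by RLE, fewer libraries, a replicate block and leaving out each library. A fold against a set at 0 used counts summed over each set on TMM library sizes, with 3 counts for the set at 0. The fits were tested on simulated data. Full values were given for members called, up to the 3 largest and smallest differences per cluster for the code letters and up to 5 by p in other comparisons. Positions and exon lengths come from GENCODE vM21, in which 96.7% of shared symbols were found, and sequences from RefSeq (GRCm38.p6). The members and gene lists were chosen with earlier results of these data known. The labels do not state separate animals, and p-values then reflect only the spread between these libraries, which may be technical.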

Additional observations from a re-analysis of the deposited data

Results flagged for a closer look

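Within sets of 4 to 8 libraries, 79 checks for a single high or low library marked 8 values in 7 Hox genes, and chance marks about 5% of such checks. Hoxa2 was at 0.54 CPM in LDRG flox 1, below the other 5 LDRG libraries, whose nearest was at 1.19 CPM. Hoxb4 was at 8.46 CPM in C-coded cKO 5, above the next at 6.86 CPM, and at 3.55 CPM in LDRG cKO 3, below the next at 4.27 CPM. Hoxb5 was at 14.4 CPM in LDRG flox 3 with the next at 15.7 CPM, and Hoxb6 at 11.2 CPM in CFA cKO 1 with the next at 9.92 CPM. Hoxc5 was at 3.19 CPM in CFA flox 1 with the next at 2.11 CPM. Hoxd4 was at 2.91 CPM in CFA flox 3 with the next at 7.92 CPM, and Hoxd9 at 5.84 CPM in C-coded flox 4 with the next at 9.33 CPM. The largest gaps in CPM belonged to Hoxd4 and Hoxd9. The L-coded set, with 3 libraries, was too small for this check.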

How the results depend on the processing

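Between C-coded and L-coded libraries, where 9 Hox genes were called, the count was 17 with DESeq2, 14 with the code letter as the only term, 3 with genes of at least 5 CPM, 5 with no filter beyond 1 count, 3 with the F or M letter of the library code added, 9 with RLE scaling and 7 in cKO libraries only, and 0 to 9 when a library was left out. Over all genes the count of 213 became 1470 with DESeq2, 587 with the letter alone, 12 with at least 5 CPM, 16 with no filter, 14 with the F or M letter, and 12 to 536 when a library was left out. With at least 5 CPM, the counts were 14 (from 22) for CFA against C-coded, 2 (from 5) for CFA against L-coded, 12 (from 20) for LDRG against C-coded and 4 (from 8) for LDRG against L-coded libraries, since that filter tests fewer genes. With only the CFA and L-coded libraries in the fit, 8 were called in place of 5. For CFA against LDRG, where 6 were called, the cKO libraries alone gave 0 and the flox libraries alone gave 0. Leaving out a library gave 16 to 23, 3 to 7, 18 to 21, 3 to 10 and 2 to 6 calls for CFA against C-coded, CFA against L-coded, LDRG against C-coded, LDRG against L-coded and CFA against LDRG.

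The labels do not say whether replicate numbers pair the libraries. Same-numbered flox and cKO libraries deviated together with correlations of at most 0.09 in LDRG and 0.05 in CFA. Number 2 in LDRG and number 4 in CFA correlated best with their own number, and the other numbers did not. With so few libraries these small correlations cannot decide whether the libraries were paired. With the replicate block the Hox counts were 1 for C-coded against L-coded, 15 for CFA against C-coded, 0 for CFA against L-coded, 1 for CFA against LDRG, and 0 for both genotype comparisons and the interaction. Under that block the difference between CFA and L-coded libraries changed sign for Hoxb5, to -0.043 (edgeR adjusted p 0.94), and for Hoxc11, to 0.59 (edgeR adjusted p 1.0). CFA and L-coded libraries share no replicate number, so the block linked them only through the C-coded libraries. The count of 0 and the changed signs of that comparison therefore come from an indirect contrast, and no conclusion is drawn from them. LDRG shares no replicate number with the C-coded or L-coded libraries, so no block could be fitted for its comparisons with them.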
